A study of Homo sapiens with 21 samples.

Results

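The aryl hydrocarbon receptor (AHR) pathway and the CYP1 enzymes it controls were followed through 7 genes: AHR, ARNT, AHRR, TIPARP, CYP1A1, CYP1A2 and CYP1B1. The genes were found by symbol after the Ensembl identifiers of the count table were matched to names, and 7 of 7 were present among 37637 features. HepG2 is an established human hepatocellular carcinoma line, so the cultures are tumour cells and many drug-metabolising enzymes of normal hepatocytes are low in them. Each culture was washed, moved to fresh serum-free DMEM holding caffeine or none, and kept there for 24 h. The 7 groups were an untreated control and caffeine at 0.01, 0.1, 1, 10, 100 and 1000 µM, with 3 cultures per group and 21 libraries. The change to serum-free medium was thus shared by the control and every dose. The labels call the cultures biological replicates and say nothing more of how separate they were, so p-values measure the spread between these libraries.

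AHR is a ligand-activated transcription factor that waits in the cytosol in a complex with HSP90 chaperones. With a ligand bound it enters the nucleus, pairs with ARNT and binds dioxin response elements, whose core is GCGTG. CYP1A1, CYP1A2 and CYP1B1 are the classical target genes, and AHRR and TIPARP are targets whose products damp the receptor in turn. CYP1A2 is also the main enzyme that demethylates caffeine in the human liver, while CYP1A1 is low in resting hepatocytes and strongly inducible. The comparisons ask at which doses these transcripts departed from control.

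Of the 7 genes, 4 had enough reads to be tested (AHR, ARNT, TIPARP and CYP1A1), and 3 (CYP1A2, AHRR and CYP1B1) fell below the count filter and are given by their counts. CYP1A1 rose at 100 and at 1000 µM. AHR and TIPARP rose at 1000 µM, and AHR was lower at 100 µM. ARNT fell at 10, 100 and 1000 µM. Against control, the calls of ARNT, TIPARP and the lower AHR were lost once a difference between sets of libraries was allowed for. In bulk RNA, fewer cells that express a gene and less of its RNA per cell cannot be told apart.

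Total counts per library ran from 23502519 to 44815552. The libraries fell into 3 sets by the composition of their mitochondrial mRNAs, and these sets cut across the doses. Set A held 11 libraries: every control, 0.01 and 0.1 µM library, with replicates 1 and 2 of the 1 µM group. The 7 libraries of set B were the whole 10 µM group, with replicate 3 of the 1 µM group, replicate 2 of the 100 µM group and replicates 1 and 2 of the 1000 µM group. The 3 left, which form set C, were the other two at 100 µM and the last at 1000 µM. The mitochondrial share was 9.95% to 14.2%, 4.72% to 4.94% and 11.8% to 12.8% of counts in sets A, B and C. Since no control library lies in set B or C, the main results against control are also given with the set as a term in the model, where replicate 3 at 1 µM is the only library that links sets A and B within a dose. All 9 of 9 hepatocyte and HepG2 markers (ALB, AFP and others) were detected, and their summed level was 34640 to 42830 CPM (counts scaled to the effective library size) in control and 28170 to 29540 at 1000 µM. Fibroblast markers summed to at most 0.0887 CPM and the 2 endothelial markers present in the table to at most 0.284 CPM in any library. The leukocyte markers summed to 22.4 to 75.7 CPM, nearly all of it CD68 (18.2 to 71.7 CPM), and CD3E had no count in any library. The markers did not move as one: by edgeR 5 of the 9 fell at 1000 µM, ALB and AFP among them, 2 rose and 2 did not pass (6 fell and 2 rose with the set term), beside 28.5% of all features higher and 29.1% lower at that dose and 38% called with the set term. Their part in the results was not tested.

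CYP1A1 (ENSG00000140465.14) lies on the minus strand at chr15:74719542-74725528 and CYP1A2 (ENSG00000140505.7) on the plus strand at chr15:74748845-74756607, by RefSeq on GRCh38.p14. The pair is transcribed away from each other, with 23317 bases between their starts. AHR (ENSG00000106546.14) lies on the plus strand at chr7:17298652-17346147 and overlaps 5 other genes of GENCODE 29. RefSeq promoter windows, from 250 bases before to 50 after a start, were found for 6 of the 7 genes. The windows of CYP1A1, CYP1A2 and AHR and the first of 3 for TIPARP are shown, because the 1000 µM libraries of these genes were the 3 highest of the 21 in CPM, and capitals mark each GCGTG on either strand.
CYP1A1, chr15:74725479-74725778, minus strand: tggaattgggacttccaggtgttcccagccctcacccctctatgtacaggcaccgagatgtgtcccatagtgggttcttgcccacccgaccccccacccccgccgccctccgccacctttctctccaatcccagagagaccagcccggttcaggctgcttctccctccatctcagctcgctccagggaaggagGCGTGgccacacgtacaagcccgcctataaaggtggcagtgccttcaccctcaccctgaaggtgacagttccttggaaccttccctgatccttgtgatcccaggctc
CYP1A2, chr15:74748595-74748894, plus strand: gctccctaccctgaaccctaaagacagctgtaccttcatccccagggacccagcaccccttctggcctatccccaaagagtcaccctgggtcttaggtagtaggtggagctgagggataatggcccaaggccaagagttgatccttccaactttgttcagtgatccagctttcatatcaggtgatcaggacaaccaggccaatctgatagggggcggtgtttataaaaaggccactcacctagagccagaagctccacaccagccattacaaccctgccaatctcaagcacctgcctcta
AHR, chr7:17298402-17298701, plus strand: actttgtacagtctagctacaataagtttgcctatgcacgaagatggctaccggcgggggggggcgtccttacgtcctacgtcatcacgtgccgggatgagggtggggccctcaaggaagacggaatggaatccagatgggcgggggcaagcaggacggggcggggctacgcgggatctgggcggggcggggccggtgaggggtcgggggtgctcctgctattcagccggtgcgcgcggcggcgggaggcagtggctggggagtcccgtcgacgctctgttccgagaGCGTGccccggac
TIPARP, chr3:156674340-156674639, plus strand: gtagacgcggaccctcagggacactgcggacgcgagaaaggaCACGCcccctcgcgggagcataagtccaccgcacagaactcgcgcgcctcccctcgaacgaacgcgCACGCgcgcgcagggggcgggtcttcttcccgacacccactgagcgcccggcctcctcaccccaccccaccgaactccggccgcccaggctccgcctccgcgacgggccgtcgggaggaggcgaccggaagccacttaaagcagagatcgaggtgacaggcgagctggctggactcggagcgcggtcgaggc
The CYP1A1 window held 1 GCGTG, 57 bases before the start, and the AHR window held 1, 37 bases after it. The CYP1A2 window held none, and that of TIPARP held 2 on the opposite strand. Across the 6 genes 5 of 9 windows held the core, as did 36.5% of all 35116 windows of this length. The longer form TNGCGTG was in 1 of the 9, a window of AHRR, and in 5.51% of all windows. A match describes the letters only, and elements farther from the start lie outside these windows.

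CYP1A1 encodes an inducible monooxygenase that oxidises polycyclic aromatic compounds. In the control libraries it stood at 2.57, 3.12 and 2.95 CPM, from 84, 120 and 77 reads. At 0.01 µM it stood at 3.20, 3.11 and 3.21 CPM, at 0.1 µM at 3.46, 3.21 and 2.80 CPM and at 1 µM at 3.27, 2.60 and 2.22 CPM. At 10 µM the values were 3.03, 3.13 and 2.59 CPM. These 15 libraries covered one narrow band, from 2.22 to 3.46 CPM, in which the groups overlapped one another. At 100 µM the level was 5.74, 5.95 and 6.18 CPM, and every library lay above that band. At 1000 µM it was 78.6, 78.3 and 80.8 CPM, from 3079, 2211 and 1950 reads, so the 3 cultures were within a few percent of each other.

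The CYP1A1 mean went from 2.88 ± 0.282 CPM in control to 5.95 ± 0.221 at 100 µM and 79.2 ± 1.39 at 1000 µM (SD, n = 3). By edgeR's quasi-likelihood test the log2 fold change was 1.04 ± 0.122 (SE) at 100 µM, a 2.06-fold rise with adjusted p 1.4e-06. At 1000 µM it was 4.78 ± 0.127, a 27.5-fold rise with adjusted p 4.14e-15. At 100 µM 46.6% of all 17951 tested features were called against control (23.6% higher and 22.9% lower), and at 1000 µM 57.6% (28.5% higher and 29.1% lower). The step from 100 to 1000 µM alone was 13.3-fold (log2 3.74 ± 0.119, adjusted p 6.2e-14 by the same test), where 44% of features were called (21.8% higher and 22.3% lower), or 46.3% with the library set as a term, which gave 3.74 ± 0.102. All comparisons against control use the same 3 control libraries.

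The rise of CYP1A1 was about the same in either library set. Between 1000 and 100 µM the log2 ratio of mean CPM was 3.72 in set B (2 libraries against 1) and 3.76 in set C (1 against 2). Within set B, where 1000 µM (2 libraries) was compared with 10 µM (3 libraries), the log2 fold change was 4.72 ± 0.0795 with an adjusted p of 1.6e-12 by edgeR, and 69.1% of features were called. With the set as a term the log2 fold change against control was 1.42 ± 0.219 at 100 µM (adjusted p 0.000152) and 5.17 ± 0.214 at 1000 µM (adjusted p 7.84e-12) by edgeR, where 17.3% and 38% of features were called. At 10 µM it was 0.02 ± 0.127 without the term and 0.41 ± 0.214 with it, and neither passed.

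**Figure D1:**
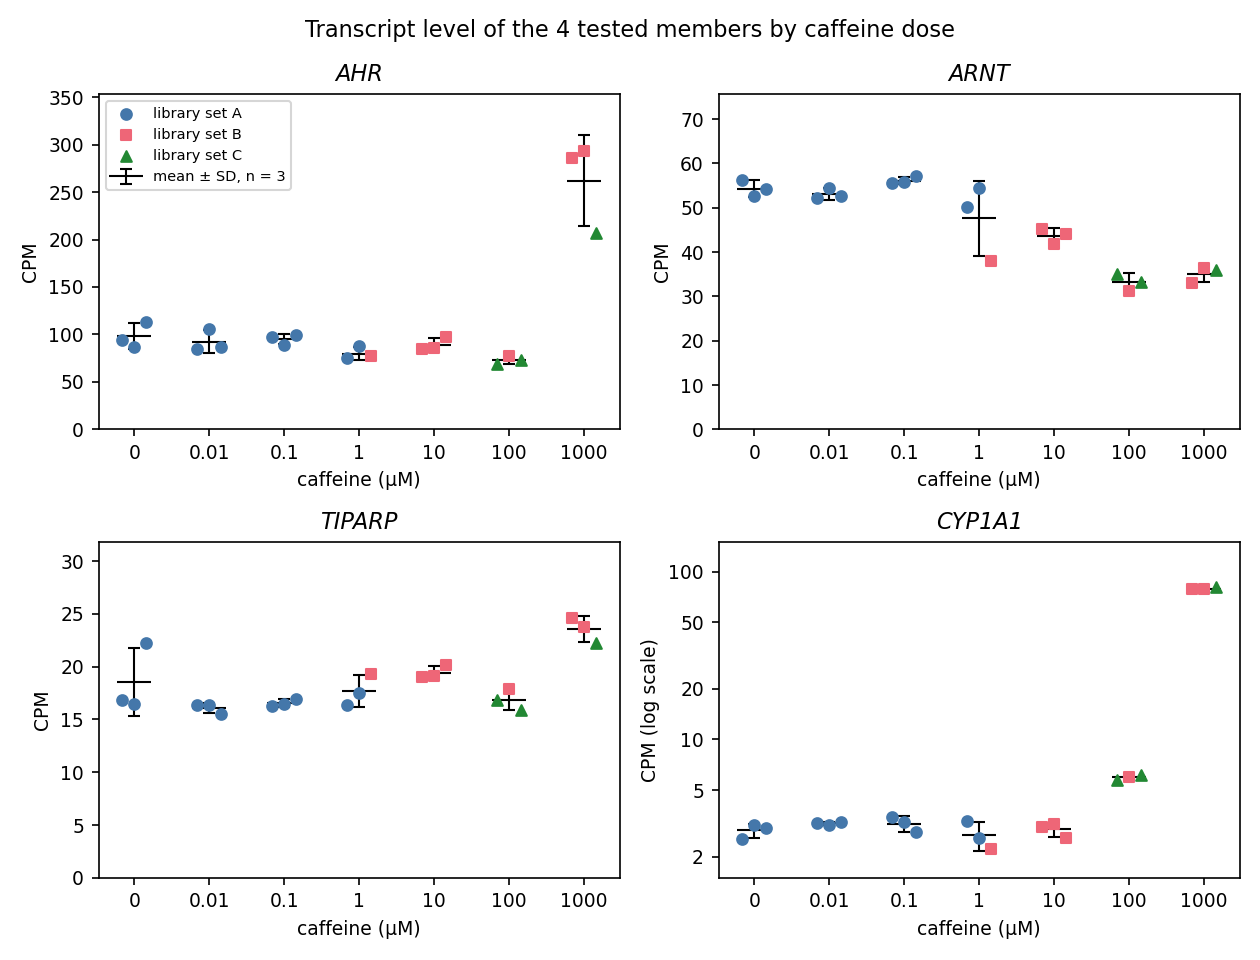
CPM (vertical axis, logarithmic for CYP1A1) of the 4 tested genes in each library against caffeine dose in µM, with colour and shape for the library set and a bar for the mean ± SD of 3 libraries. CYP1A1 stayed between 2.22 and 3.46 CPM up to 10 µM and reached 78.3 to 80.8 CPM at 1000 µM, while AHR exceeded its control range only at 1000 µM, where the set C library (207 CPM) lay below the pair from set B.

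CYP1A2 and CYP1B1 could barely be measured. CYP1A2 had 0, 3 and 0 reads in the control libraries, 0, 1 and 1 at 0.01 µM, 0, 3 and 0 at 0.1 µM, and none in any library at 1 µM. It had 2, 1 and 0 reads at 10 µM and 1, 1 and 2 at 100 µM. At 1000 µM it had 5, 6 and 6, which were the 3 highest counts among the 21 libraries, and in CPM (0.128, 0.213 and 0.249) these libraries also lay above all others. Summed over the group, 17 reads at 1000 µM against 3 in control gave a ratio of 6.02 after scaling, with an exact 95% interval of 1.74 to 32.1. Intervals of this kind hold counting error alone and leave out the spread between cultures. Without molecular identifiers PCR copies of a molecule count as separate reads, so the intervals may also be too narrow. An exact two-sided permutation test of CPM over the samples gave p = 0.1, the smallest value that 3 against 3 allows.

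Without a count filter, edgeR gave CYP1A2 a log2 fold change of 2.56 ± 1.04 at 1000 µM with an adjusted p of 0.0637, and an adjusted p of 0.0216 in the joint test of all 7 groups. So the higher count at the top dose did not pass against control. CYP1A2 passed only the joint test, which rested on 32 reads over all 21 libraries. With the filter 73.6% of features passed the joint test, and the share without a filter was not counted. CYP1B1 (ENSG00000138061.12, at chr2:38067509-38076151 on the minus strand), which metabolises oestrogens and aromatic hydrocarbons outside the liver, had 3 reads in all: 1 in control, 1 at 0.1 µM and 1 at 10 µM. It was at 0 in all libraries at 100 and at 1000 µM, which allows a level of up to 0.0312 and 0.0328 CPM over these groups by counting error. CYP1B1 overlaps RMDN2 and CYP1B1-AS1 in GENCODE 29, and the use of strand in counting is not stated, so its few reads cannot be assigned with certainty.

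**Figure D2:**
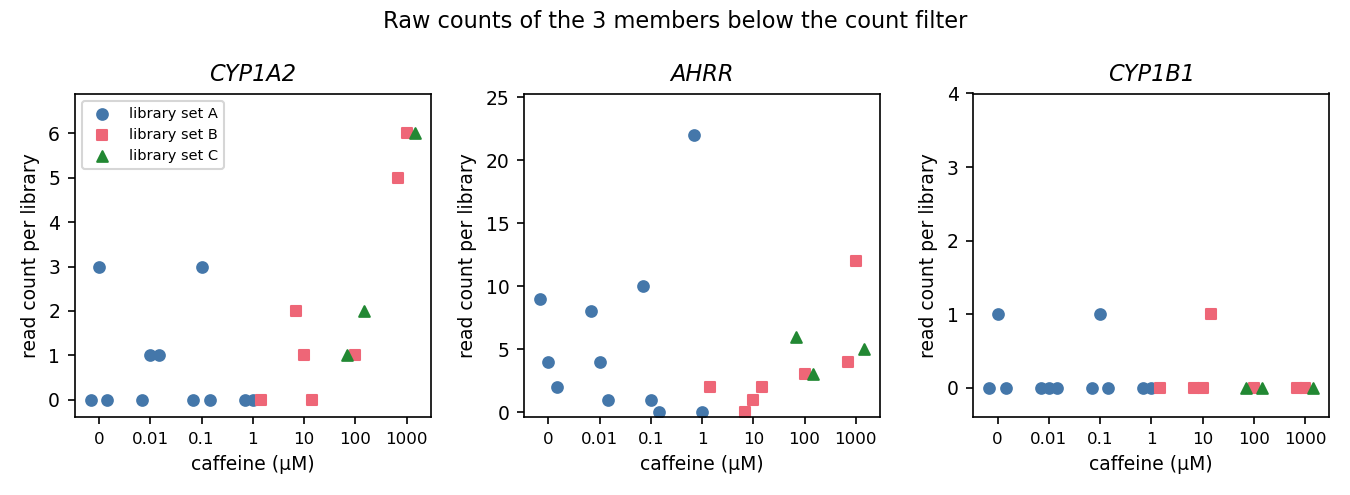
Raw read counts per library (vertical axis) of the 3 genes below the count filter against caffeine dose in µM, with colour and shape for the library set. CYP1A2 reached 5 to 6 reads only at 1000 µM, AHRR varied from 0 to 22 with no order by dose, and CYP1B1 had at most 1 read in any library.

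AHR, the receptor itself, was an abundant transcript that rose at the top dose. In control it stood at 94.2, 86.4 and 113 CPM, and the 15 libraries from control to 10 µM ranged from 74.7 to 113 CPM with overlapping groups. At 100 µM it was 68.5, 77.2 and 73.4 CPM, all below the lowest control. At 1000 µM it was 286, 294 and 207 CPM, so every library was above every other group, and replicate 3, the only one from set C, was the lowest of the 3.

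The AHR mean was 97.9 ± 13.6 CPM in control, 73.1 ± 4.34 at 100 µM and 262 ± 47.9 at 1000 µM (SD, n = 3). At 1000 µM the log2 fold change was 1.42 ± 0.128 (SE), a 2.68-fold rise (adjusted p 1.77e-08 by edgeR). It was 1.57 ± 0.202 with the set as a term (adjusted p 6.19e-06 by edgeR) and 1.68 ± 0.0615 between 1000 and 10 µM within set B. Between 1000 and 100 µM AHR was 3.59-fold higher (log2 1.84 ± 0.13, adjusted p 1.27e-09 by edgeR), or log2 1.73 ± 0.118 with the set term. The log2 ratios of mean CPM were 1.91 in set B (2 libraries against 1) and 1.54 in set C (1 against 2). The lower value at 100 µM was called (log2 -0.42 ± 0.127, adjusted p 0.0108 by edgeR). That call was lost with the set term (-0.16 ± 0.209, adjusted p 0.677) and without control replicate 3 (-0.29, adjusted p 0.0798).

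ARNT (ENSG00000143437.21, at chr1:150809713-150876599 on the minus strand), the obligate partner of AHR that also pairs with the hypoxia-inducible factors, was lower from 10 µM upward. In control it stood at 56.2, 52.6 and 54.2 CPM, at 0.01 µM at 52.1, 54.5 and 52.6 CPM and at 0.1 µM at 55.5, 55.8 and 57.1 CPM. The 3 groups covered one band. At 10 µM it was 45.3, 41.7 and 44.1 CPM, at 100 µM 35.2, 31.2 and 33.2 CPM and at 1000 µM 33.0, 36.5 and 35.9 CPM. All 9 of these libraries lay below all 3 controls, but at 1 µM the libraries split by set, with 50.1 and 54.6 CPM in set A and 38.1 in set B.

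The ARNT log2 fold changes by edgeR were -0.31 ± 0.098 at 10 µM (adjusted p 0.0377, with 14.8% of features called, 7.27% higher and 7.49% lower), -0.71 ± 0.0989 at 100 µM (adjusted p 1.04e-05) and -0.63 ± 0.0987 at 1000 µM (adjusted p 2.13e-05). With the set as a term they were 0.15 ± 0.118, -0.31 ± 0.126 and -0.20 ± 0.12, and none passed (adjusted p 1, 0.0975 and 0.2 by edgeR). With the term 0.0279% of features were called at 10 µM. The call at 10 µM was also lost without any 1 of the 3 control or 3 of the 10 µM libraries, or without replicate 2 or 3 at 0.1 µM. Within set B, ARNT was lower at 1000 than at 10 µM, with a log2 fold change of -0.35 ± 0.066 and an adjusted p of 0.000408 by edgeR. Between 1000 and 100 µM the difference did not pass (0.08 ± 0.0991, adjusted p 0.531 by edgeR). In the joint test of the 7 groups ARNT passed without the set term (adjusted p 2.68e-06 by edgeR), as did 73.6% of features. ARNT also passed with the term (adjusted p 0.00202 by edgeR), where the share of features that passed was not counted.

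**Figure D3:**
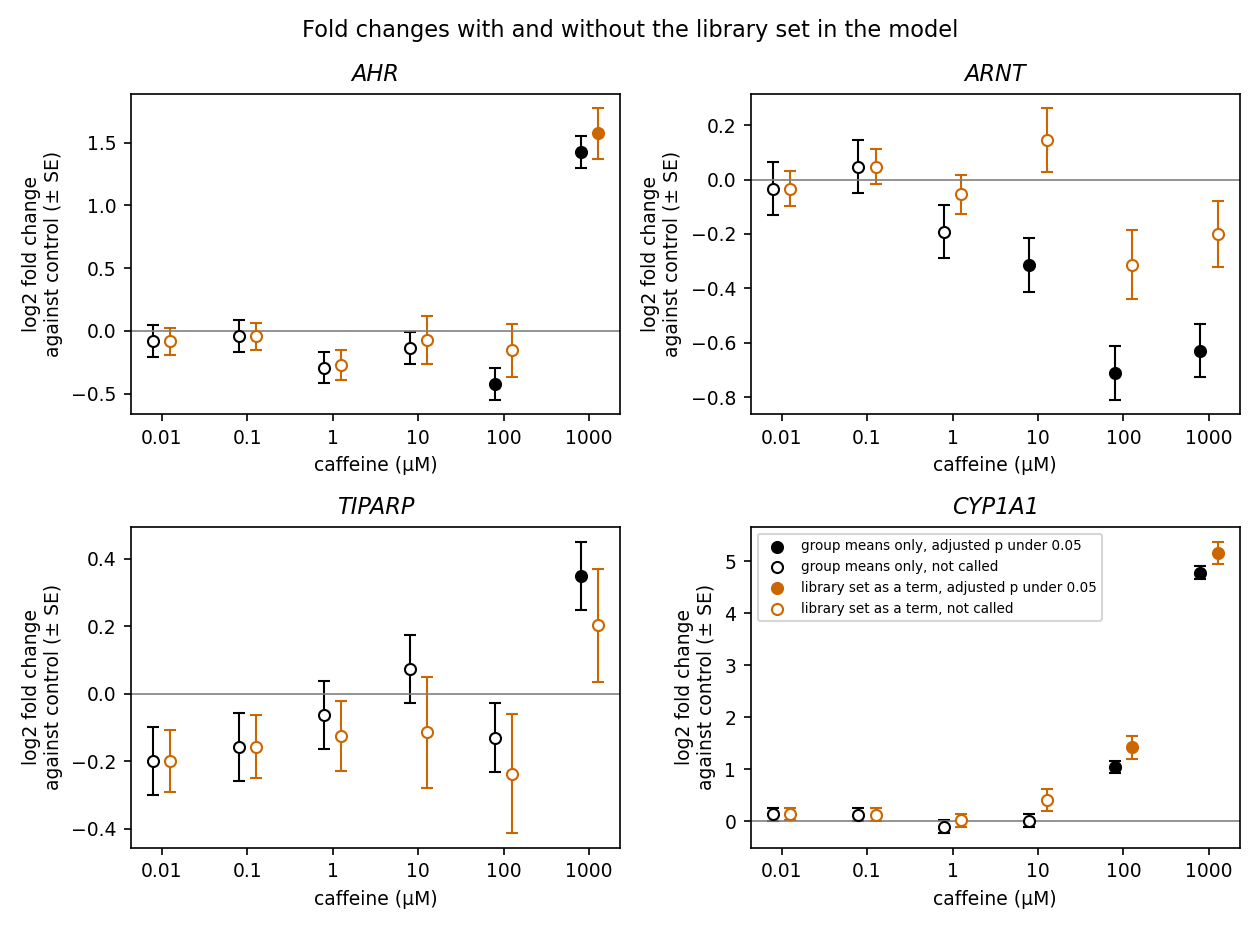
Log2 fold change against control (vertical axis, ± SE) at each caffeine dose in µM for the 4 tested genes, in black from the group means and in orange with the library set as a term, with filled points where the adjusted p was under 0.05. For CYP1A1 and AHR the values at 1000 µM were filled in both fits, while for ARNT the values at 10, 100 and 1000 µM were filled only in the fit without the set.

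TIPARP (ENSG00000163659.13, at chr3:156674590-156706770 on the plus strand) encodes a mono-ADP-ribosyltransferase that is induced by AHR and represses it. It changed far less than CYP1A1. Its levels were 16.8, 16.5 and 22.2 CPM in control, so replicate 3 stood apart from the other two. They were 15.5 to 17.0 CPM over the 6 libraries at 0.01 and 0.1 µM, and 16.3, 17.5 and 19.3 CPM at 1 µM. At 10 µM they were 19.0, 19.2 and 20.2 CPM, at 100 µM 16.8, 17.9 and 15.9 CPM and at 1000 µM 24.6, 23.8 and 22.3 CPM. The 1000 µM libraries were the 3 highest of the 21, with the lowest of them (22.26 CPM) just above control replicate 3 (22.24 CPM).

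The TIPARP rise at 1000 µM was 1.27-fold (log2 0.35 ± 0.101, adjusted p 0.00595 by edgeR). It did not pass with the set term (0.20 ± 0.168, adjusted p 0.369 by edgeR), nor when only the control and 1000 µM libraries were fitted (0.35, adjusted p 0.0724). Against 100 µM it was 1.4-fold higher and passed in both fits, with log2 fold changes of 0.48 ± 0.101 (adjusted p 0.000746) and 0.44 ± 0.0977 (adjusted p 0.00103 by edgeR). The log2 ratio between these doses was 0.44 in set B (2 libraries against 1) and 0.45 in set C (1 against 2). Within set B the difference between 1000 and 10 µM was 0.30 ± 0.0679, with an adjusted p of 0.00178 by edgeR. TIPARP overlaps TIPARP-AS1 in GENCODE 29, and reads of the pair cannot be told apart if strand was not used.

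AHRR (ENSG00000063438.17, at chr5:321714-438285 on the plus strand), a repressor that competes with AHR for ARNT, was near the limit of detection. Its counts were 9, 4 and 2 in control, 8, 4 and 1 at 0.01 µM, 10, 1 and 0 at 0.1 µM and 22, 0 and 2 at 1 µM. They were 0, 1 and 2 at 10 µM, 6, 3 and 3 at 100 µM and 4, 12 and 5 at 1000 µM. At 10 µM the libraries lay below all controls in CPM, but the widest spread within a group (SD 0.378 CPM at 1 µM) was larger than any difference between group means, and the highest single count came from replicate 1 at 1 µM. The scaled ratio of summed reads at 1000 µM over control was 1.49, with an exact 95% interval for counting error of 0.731 to 3.1. Without a filter edgeR gave a log2 fold change of 0.63 ± 1.17 at 1000 µM (adjusted p 0.802), so a rise of AHRR was not detectable at this depth. AHRR overlaps PDCD6 in GENCODE 29.

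At the 3 lowest doses none of the 4 tested genes passed by edgeR's quasi-likelihood test, DESeq2's Wald test or limma-voom. One value, AHR at 1 µM (log2 -0.29 ± 0.126), had an unadjusted p under 0.05 in edgeR (0.0321, adjusted 0.272). At 0.01, 0.1 and 1 µM CYP1A1 had log2 fold changes of 0.14 ± 0.126, 0.13 ± 0.127 and -0.10 ± 0.128. TIPARP had -0.20 ± 0.101, -0.16 ± 0.101 and -0.06 ± 0.101 at the same doses. The share of all features called by edgeR was low at these doses: 0.0279% at 0.01 µM, 0% at 0.1 µM (1701 had an unadjusted p under 0.05) and 0.106% at 1 µM. That is 5, 0 and 19 features, while DESeq2 called 394, 51 and 426 and limma-voom 8, 0 and 24. With the set term 3.02%, 0.0223% and 0.629% were called. The 3 libraries of TIPARP at 0.01 µM lay below all 3 controls without passing the test.

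To compare levels between genes, CPM was divided by the length of each gene's exons in GENCODE 29. In control AHR stood at 12.1 ± 1.69 CPM per kb, ARNT at 8.34 ± 0.279, TIPARP at 3.67 ± 0.637 and CYP1A1 at 0.838 ± 0.082 (SD, n = 3). At 1000 µM AHR stood at 32.4 ± 5.93 CPM per kb and CYP1A1 at 23.1 ± 0.403, followed by ARNT at 5.39 ± 0.289 and TIPARP at 4.67 ± 0.239. CYP1A1 thus moved from the fourth to the second of the 4, and the AHR and CYP1A1 libraries remained separate. CYP1A2 stayed lowest of the CYP1A pair, at 0.072 ± 0.0228 CPM per kb at 1000 µM. Exon lengths were merged over all annotated transcripts and so understate the level of genes with rare long forms.

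Ratios within a library do not depend on how libraries are scaled, but they can differ between library sets. All controls lie in set A and no 10, 100 or 1000 µM library does. The ratio of AHR to ARNT reads per kb was 1.45 ± 0.198 in control, 1.64 ± 0.133 at 10 µM, 1.78 ± 0.211 at 100 µM and 6.04 ± 1.23 at 1000 µM (SD, n = 3). At 10 µM the log2 fold changes of AHR and ARNT were -0.137 and -0.314, but -0.073 and 0.145 with the set as a term. The higher ratio of AHR to ARNT at 10 µM was thus not kept with the set term. The lowest library at 1000 µM had 4.64, against a highest of 1.68 in control. The ratio of CYP1A1 to AHR reads per kb was 0.0701 ± 0.0128 in control, 0.192 ± 0.00934 at 100 µM and 0.731 ± 0.163 at 1000 µM. At 100 µM every library (0.181 to 0.198) was above every control (0.0615 to 0.0848), so CYP1A1 was higher relative to AHR at a dose where AHR itself was not higher. The ratio of TIPARP to AHR was 0.302 ± 0.0149 in control, 0.356 ± 0.0391 at 1 µM, 0.35 ± 0.0157 at 10 µM and 0.37 ± 0.0233 at 100 µM, and every library at these 3 doses was above every control. At 1000 µM it was 0.147 ± 0.0225, and every library was below. Without the set term the log2 fold changes of TIPARP and AHR were 0.072 and -0.137 at 10 µM, and -0.131 and -0.421 at 100 µM. With the set term they were -0.115 and -0.073 at 10 µM, and -0.237 and -0.155 at 100 µM. The higher ratio of TIPARP to AHR at 10 and 100 µM was thus not kept with the set term.

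Around these genes, 69 others were listed in 6 groups, and 52 passed the filter. By edgeR 20 of the 52 rose and 12 fell at 1000 µM, beside 28.5% and 29.1% of all features, with a median log2 fold change of 0.19 against -0.01 over all features. Of the 52, 3 (FGF21 and UGT1A6 among them) passed the filter only through the 1000 µM libraries, and among the other 49 genes 18 rose and 12 fell, so 61.2% were called beside 57.6% of all features. With the set term 19 of the 49 rose and 7 fell, beside 38% of all features called. At 100 µM 12 rose and 18 fell, beside 23.6% and 22.9% of all features (6 and 5 with the set term, where 17.3% of features were called). At 10 µM 3 rose and 4 fell, beside 14.8% of all features called, and none was called with the set term, where 0.0279% of all features were. At 0.01, 0.1 and 1 µM none was called by edgeR, with 12, 3 and 13 of the 52 at an unadjusted p under 0.05 beside 2698, 1701 and 2811 of all 17951 features, while DESeq2 called 2, 0 and 2. The lists were drawn up with earlier results of these data known, so the counts describe them only.

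Other target genes of AHR had the median farthest from 0 of the 6 lists at 1000 µM. Of the 13 that passed the filter without the 1000 µM libraries, 8 rose and 3 fell, beside 28.5% and 29.1% of all features, with a median log2 fold change of 0.84. With the set term 7 rose and 1 fell, beside 38% of all features called. At 100 µM the direction was not the same, counted over all 15 tested genes with FGF21 and UGT1A6 included. Of these 3 rose and 6 fell, beside 23.6% and 22.9% of all features, with a median of -0.18. With the set term 2 of the 15 rose and 2 fell, beside 17.3% of all features called. EREG, which encodes the growth factor epiregulin, went from 0.632 ± 0.0507 CPM in control to 5.88 ± 0.571 at 1000 µM (SD, n = 3; log2 3.21 ± 0.218 (SE), adjusted p 3.45e-10 by edgeR). At 100 µM EREG was lower than control instead, at 0.273 ± 0.0454 CPM (log2 -1.18 ± 0.258, adjusted p 0.00101 by edgeR), and both calls held with the set term. FGF21, a hepatic stress hormone that passed the filter only through the 1000 µM libraries, had 2 reads in control, 2 to 4 at the doses from 0.01 to 100 µM and 46 at 1000 µM. UGT1A6, a glucuronidating enzyme whose later exons are shared by the UGT1A family, passed the filter in the same way, and both are given by their reads alone: UGT1A6 had 9 in control, 22, 12, 14, 21 and 15 at the doses from 0.01 to 100 µM, and 43 at 1000 µM.

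NQO1, the quinone reductase used as a standard AHR and NRF2 target, was picked after its values were seen. It rose from 466 ± 19.4 CPM to 717 ± 30 at 100 µM and 1198 ± 73 at 1000 µM (SD, n = 3), and both rises passed with the set term (adjusted p 0.000975 and 3.73e-08 by edgeR). HES1, a transcriptional repressor downstream of Notch, had the largest rise of these targets at 100 µM, to 2.37 ± 0.356 from 0.872 ± 0.0427 CPM (adjusted p 0.000369 by edgeR, 0.0704 with the set term). VAV3, a guanine nucleotide exchange factor, fell by 2.24 on the log2 scale at 1000 µM, from 7.57 ± 0.464 to 1.59 ± 0.13 CPM, and by 1.84 with the set term. NEDD9 (-0.35), a scaffold protein of cell adhesion, fell without the set term only.

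Of the 7 chaperones and turnover factors of AHR, none rose and 3 fell at 1000 µM. Of all features 28.5% were higher and 29.1% lower at that dose. With the set term 2 of the 7 fell, beside 38% of all features called. HSP90AA1, the inducible HSP90, fell from 2177 ± 316 to 793 ± 45 CPM (SD, n = 3; log2 -1.46 ± 0.0939 (SE), adjusted p 1.67e-10 by edgeR; -1.25 with the set term), while HSP90AB1 rose at 100 µM (0.26, lost with the set term) and did not pass at 1000 µM. STUB1, a ubiquitin ligase that binds the chaperones, fell by 0.95 at 1000 µM.

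Nuclear partners and coregulators were mixed, with 5 of 14 higher and 3 lower at 1000 µM (6 and 1 with the set term). That is 57.1% called without the set term, near the 57.6% of all features, while 38% of all features were called with it. NRIP1, a corepressor of nuclear receptors, rose by 1.44 ± 0.138 on the log2 scale (adjusted p 4.19e-08 by edgeR), the coactivator NCOA1 by 0.96 ± 0.127 and the corepressor NCOR1 by 0.61 ± 0.116. All 3 were also called with the set term. NRIP1 was the highest of this list at 100 µM too (0.75, adjusted p 0.0461 with the set term). RELB, an NF-kB subunit that can pair with AHR, fell at both doses (-1.06 at 100 µM and -0.71 at 1000 µM) and passed with the set term. RELA (-0.78) and SMARCA4 (-0.48) fell at 1000 µM without the set term only. ARNT2, the close relative of ARNT, had 2 to 4 reads in the control, 100 and 1000 µM groups, was not tested and is named after its values were seen.

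Enzymes of the kynurenine route, which can yield AHR ligands from tryptophan, were partly measurable. Of 9 listed, 8 were in the table and 5 were tested, of which 3 were called at 1000 µM beside 57.6% of all features. KYNU, which cleaves kynurenine, rose from 93.4 ± 8.99 to 173 ± 16 CPM at 1000 µM (SD, n = 3; log2 0.89 ± 0.0852 (SE), adjusted p 4.09e-08 by edgeR), and AADAT, an aminotransferase, rose by 0.82 ± 0.135. KYAT1, another aminotransferase, fell by 1.51 ± 0.242. These calls held with the set term. At 100 µM AADAT was higher (0.93) and KYNU lower (-0.52), the latter not with the set term.

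Among other factors of the bHLH-PAS family, to which AHR and ARNT belong, 3 of 8 rose and 1 fell at 1000 µM. Of all features 57.6% were called at that dose. With the set term 4 of the 8 rose and 1 fell, beside 38% of all features called. SIM2 rose by 0.91 ± 0.157, NPAS2 by 0.45 ± 0.143 and EPAS1, the hypoxia-inducible factor 2 alpha that also pairs with ARNT, by 0.44 ± 0.0994. BMAL1, the ARNT-like clock factor, fell by 1.31 ± 0.102 (adjusted p 2.08e-09 by edgeR). All 4 were called with the set term too. At 100 µM the largest fall was in NPAS1 (-1.15), called in both fits, and the largest rise in SIM2 (0.65), not called with the set term (adjusted p 0.0557).

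Enzymes that break down caffeine besides CYP1A2 were scarce in these cells. Of the 8 genes of this list, which includes the P450 electron donors POR and CYB5A, 3 were tested. XDH, which oxidises methylxanthines, had no read in the control, 100 or 1000 µM groups, and NAT2, which acetylates a caffeine metabolite, had 0 to 4 reads in every group with no order by dose. Both are named after their values were seen. CYB5A fell from 104 ± 3.06 to 58 ± 1.55 CPM at 1000 µM (SD, n = 3; log2 -0.85 ± 0.0779 (SE), adjusted p 2.32e-08 by edgeR) and also with the set term (-0.77). At 100 µM its change was -0.26, called without the set term only.

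**Figure D4:**
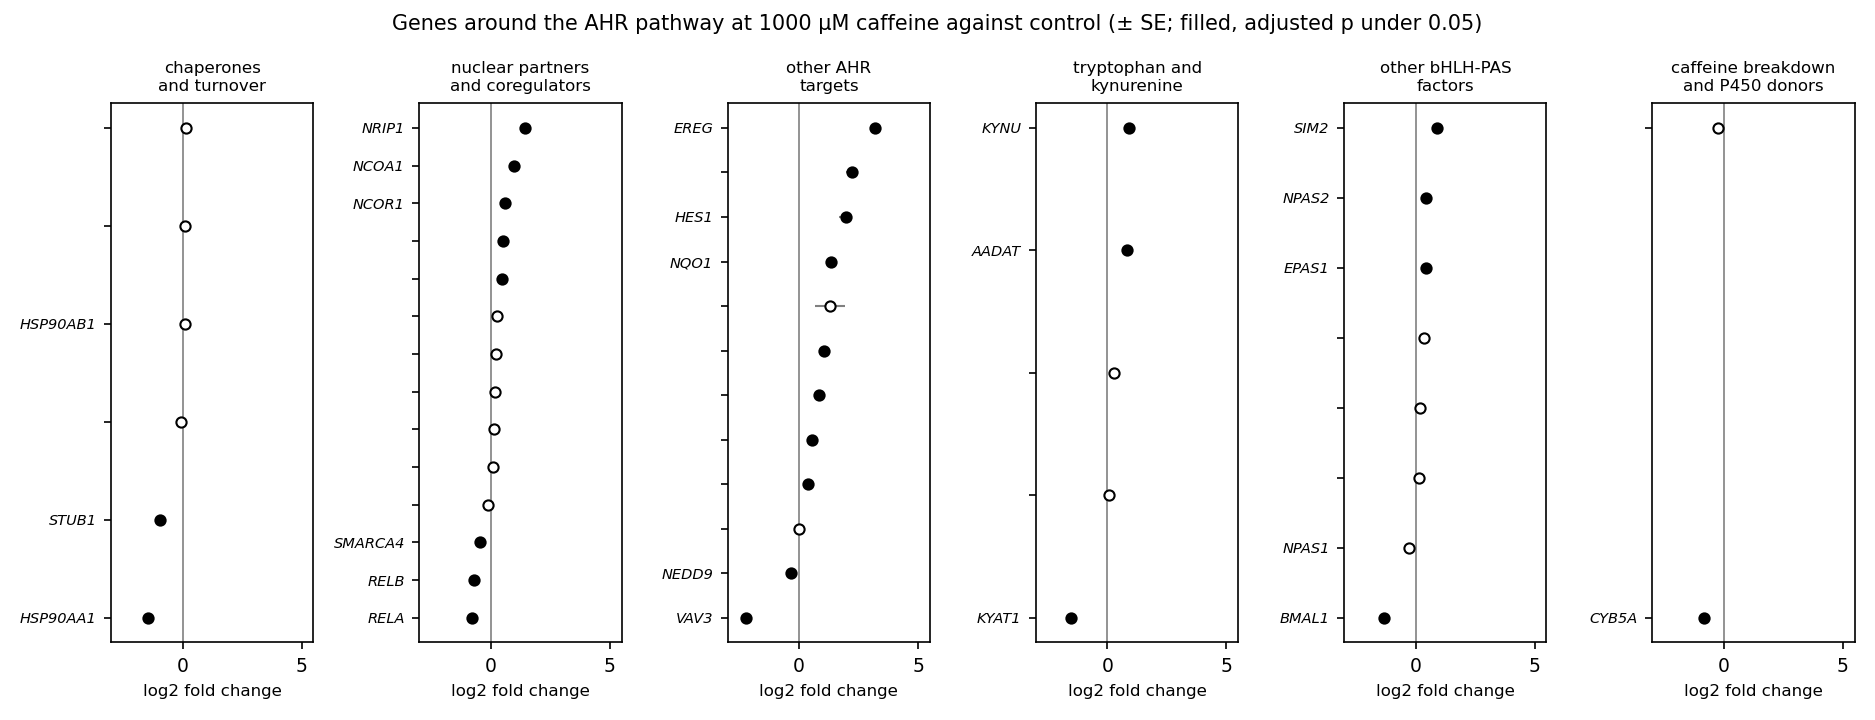
Log2 fold change at 1000 µM against control (horizontal axis, ± SE) of 47 tested genes of the 6 lists that passed the filter without the 1000 µM libraries, with filled points where the adjusted p was under 0.05 and labels for the genes named in the text. In the list of other AHR targets 8 of the 12 genes shown were filled to the right of 0, beside 28.5% of all features higher, while in the list of chaperones both filled points of 6 lay to the left, beside 29.1% lower.

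The genes closest in pattern were found for the members that changed by at least 1 on the log2 scale at 1000 µM. Likeness was the root mean square difference of log2 CPM relative to control over the 18 treated libraries, among 14512 genes with a symbol. Closest to CYP1A1 were DUSP5 at 0.39, ZMIZ1-AS1 at 0.40 and MT1E at 0.41. DUSP5, a phosphatase of ERK kinases, stood at 0.284 CPM in control, 0.417 at 100 µM and 8.95 at 1000 µM. ZMIZ1-AS1, an antisense RNA, stood at 1.21, 4.12 and 25.6 CPM in the same order, and MT1E, a metallothionein of a multigene family with similar sequences, at 0.81, 2.61 and 24.7 CPM. Closest to AHR were CPEB4 at 0.15, NCOA7 at 0.17 and SLC25A27 at 0.17. Their log2 fold changes were 1.20, 1.10 and 1.55 at 1000 µM and -0.50, -0.29 and -0.34 at 100 µM, against 1.42 and -0.42 for AHR.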

How the data were processed

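The deposited values are unnormalized whole-number read counts for 37637 features, of which 4700 are unannotated loci. Per the labels' protocols, poly(dT) beads selected the RNA and SmartScribe reverse transcriptase made the cDNA. Per the submitters' processing notes, HISAT2, DESeq2 and GRCh38 were used, while the counting tool, annotation release and use of strand are not given in the sources used here. The table's other 21 per-sample columns were left out. Groups were taken from the dose in the sample titles, and replicate pairs within a group differed by more than counting noise (lowest chi-square per gene 3.39 among 21 pairs).

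Counts were filtered with filterByExpr, which kept 17951 features, normalised by TMM, then fitted in edgeR 4.0.16 in R 4.3.3 (robust quasi-likelihood F-test, 2-sided, a mean per group over all 21 libraries), with Benjamini-Hochberg adjustment across features and a threshold of 0.05. A standard error is the absolute log2 fold change over the square root of F. Log2 CPM used a prior count of 2. Library sets came from average-linkage clustering of the 13 mitochondrial mRNAs at the highest silhouette (0.571). The 7 genes, the lists and the tests were chosen with earlier results of these data known. All 7 genes are named. From each list the called genes with up to 3 largest rises and falls at 1000 µM and the largest rise and fall at 100 µM are named, with the 3 nearest patterns, except 2 list genes that are counted but not reported here. Totals of 23502519 to 44815552 counts per library set the precision, and a floor of 3 counts over a group was used for 0. Alternatives were DESeq2 size factors, DESeq2 1.42.0, limma-voom (limma 3.58.1), testing without a filter, keeping features with a mean of 5 CPM or more, only the groups compared, a replicate block, the library set as a term, set B alone and leaving out each library. Promoter windows and positions are RefSeq's on GRCh38.p14, and exon lengths are from GENCODE 29.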

Additional observations from a re-analysis of the deposited data

How the results depend on the processing

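Of 427 values under alternatives for the 15 called results of the 4 tested genes, 410 kept their direction and call, 16 lost the call and 1 changed sign. Over all 32 of their results none gained a call, and 13 uncalled values changed sign. With the library set as a term, ARNT changed sign at 10 µM (0.145) and was not called at 100 µM (-0.313) or 1000 µM (-0.2), AHR was not called at 100 µM (-0.155), nor TIPARP at 1000 µM (0.203). The features called at the 6 rising doses were then 542, 4, 113, 5, 3114 and 6829, against 5, 0, 19, 2650, 8358 and 10342 without it, and the list genes 2, 1, 0 and 11 for the doses of 0.01, 1, 10 and 100 µM against 0, 0, 7 and 30. The cause was not tested, and replicate 3 at 1 µM is the only link between sets A and B within a dose.

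ARNT at 10 µM was also lost without a filter (-0.286) and with the replicate block (-0.314, adjusted p 0.0523 by edgeR), and TIPARP at 1000 µM with only the groups compared (0.351). Under the block no feature passed at 0.01 or 1 µM (0 and 0), and no other call of the 4 genes changed. Same-numbered libraries did not deviate together (the mean correlation ran from -0.108 to 0.152, and 1 among 21 group pairs exceeded 0.1), so the replicate numbers were not taken as pairs.

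At 0.01 µM the features called were 394 by DESeq2, 8 by limma-voom, 2 without a filter, 10 at a mean of at least 5 CPM and 12 with only the groups compared. At 0.1 µM DESeq2 called 51, and 1 passed without a filter. At 1 µM they were 11 with DESeq2 size factors, 426 by DESeq2, 0 without a filter, 58 at 5 CPM and 4 with only the groups compared. At 10 µM they were 1748 without a filter. List genes called by DESeq2 were 2 at 0.01 µM, 2 at 1 µM and 13 at 10 µM, where 3 were called without a filter. The causes were not tested.

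Leaving out 1 library at a time gave -0.503 to -0.29 for AHR at 100 µM and -0.339 to -0.28 for ARNT at 10 µM. For 0.01 µM it gave 0 to 21 features, for 0.1 µM 0 to 1, for 1 µM 0 to 119 and for 10 µM 1039 to 3519 features with 1 to 11 list genes. CYP1A1 ran from 4.698 to 4.844 and AHR from 1.333 to 1.562 at 1000 µM.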

Other observations

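RefSeq lists 10 other genes within 100 kb of CYP1A1 and CYP1A2 on chromosome 15, and 5 of them were tested. By edgeR none of the 5 rose at 1000 µM against control, 2 fell and 3 were not called, beside 28.5% of all features higher and 29.1% lower, with log2 fold changes from -0.71 (SCAMP2) to 0.05 (ULK3).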
